A study of Mus musculus with 17 samples.

Results

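The lysosomal and autophagy genes described here are a list of 44 gene symbols, drawn up without a threshold on measured values. They comprise 11 glycosidases, 4 sulfatases, 7 lipid enzymes, carriers or activators, 9 peptidases together with granulin, 6 lysosomal membrane proteins, 3 transcription factors and 4 autophagy genes. The symbols were matched to the Ensembl identifiers of the count files, and all 44 were found among the 53313 identifiers that the 17 libraries share. All 44 also passed the filter on low counts in the cultures and in the kidneys, so no member is missing from any comparison.

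Transcripts were counted in cultured primary tubular epithelial cells (PTEC) and in whole kidneys of wild-type mice, given as C57BL/6Rj in the labels and as C57BL/6JRj in the study's methods. PTEC are cells that grow out of collagenase-digested tubular fragments. Non-senescent PTEC (n = 4 cultures) were harvested on day 6 without irradiation. Senescent PTEC (n = 4) were harvested on day 16 after exposure of the confluent cells to γ-irradiation with 10 Gy, so the effects of irradiation and of the longer time in culture cannot be told apart. Kidneys came from male mice aged 3, 12 and 24 months (n = 3 mice at each age). The questions were how the transcripts of the lysosome differ in senescent tubular cells and how they differ with age in the whole organ.

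The lysosome is the acidic compartment in which hydrolases degrade glycans, lipids and proteins delivered by endocytosis and by autophagy. Proximal tubular cells take up large amounts of filtered protein and depend on this pathway. The transcription factors Tfeb, Tfe3 and Mitf act on lysosomal and autophagy promoters through a short element known as the CLEAR motif, which contains CACGTG. Glb1 encodes the lysosomal β-galactosidase whose activity at suboptimal pH is the basis of the senescence-associated β-galactosidase stain.

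The promoters of the members were searched for this element in the RefSeq table of GRCm38.p6, which gives 250 bases before and 50 bases after each start site. Of the 44 members, 40 had an entry. TCACGTG on either strand was present in 10 of the 40 (25.0%) and in 4.29% of the 27025 genes in the table. The shorter CACGTG, which is contained in TCACGTG and reads the same on both strands, was present in 11 of the 40 (27.5%) and in 8.09% of all genes. The additional member was Ctsl. The 10 members with TCACGTG were Glb1, Gaa, Gla, Naglu, Sgsh, Arsa, Ctsa, Ctsd, Lamp1 and Mcoln1. A match is a stretch of letters and not a measured binding site. The stretches below are from members to which the results return. They lie upstream of the start site of the RefSeq table, are printed 5′ to 3′ on the strand of the gene, and carry in capitals the 1 match whose position is given. In the GENCODE annotation, from which gene coordinates were taken, the genes Ctsd, Ctsl and Sgsh begin further upstream, so that the stretches of Ctsd and Ctsl lie within the gene and that of Sgsh lies partly within it. The Lamp1 stretch holds a further match left in lower case.

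Glb1, chr9:114401003-114401062, plus strand: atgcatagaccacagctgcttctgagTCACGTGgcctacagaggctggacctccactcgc
Gaa, chr11:119267796-119267855, plus strand: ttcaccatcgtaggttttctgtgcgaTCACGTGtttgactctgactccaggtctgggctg
Sgsh, chr11:119355511-119355566, minus strand: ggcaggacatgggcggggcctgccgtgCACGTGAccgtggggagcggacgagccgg
Ctsd, chr7:142387893-142387952, minus strand: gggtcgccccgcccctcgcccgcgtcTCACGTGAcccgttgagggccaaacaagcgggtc
Gla, chrX:134601167-134601226, minus strand: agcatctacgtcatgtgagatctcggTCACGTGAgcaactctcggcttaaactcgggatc
Lamp1, chr8:13159073-13159132, plus strand: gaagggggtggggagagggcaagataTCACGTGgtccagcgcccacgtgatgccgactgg
Ctsl, chr13:64370724-64370770, minus strand: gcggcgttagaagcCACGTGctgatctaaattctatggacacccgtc

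Within the matches printed, CACGTG begins at positions -48 in Glb1, -140 in Gaa, -29 in Sgsh, -98 in Ctsd, -194 in Gla, -61 in Lamp1 and -236 in Ctsl, counted from the start site of the table. Ctsd, Gla and Mcoln1 each held 2 upstream matches and Lamp1 held 4. No match was present in these windows of Hexa, Idua, Gabarapl1 or Map1lc3b.

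Libraries differed in depth. Reads counted on genes ranged from 26963442 to 32838856 in non-senescent PTEC, from 29041073 to 35409144 in senescent PTEC, from 37311247 to 49471409 in kidneys of 3 months, from 54097073 to 59718029 at 12 months and from 62761670 to 66894790 at 24 months, so depth rose with age. The member with the fewest reads, Ctsk, still had at least 33 in every library. Of 10 proximal tubule markers only 6 passed the filter on low counts in PTEC. Their summed level was 215 to 850 CPM (counts relative to library size after TMM scaling of the libraries) in non-senescent PTEC, 169 to 353 CPM in senescent PTEC and 10769 to 20227 CPM in the kidneys. The defining transporter transcript Slc34a1 lay at 0.197 to 22.4 CPM in non-senescent PTEC and at 0 to 0.0670 CPM in senescent PTEC, against 2503 to 5904 CPM in kidneys of 3 months. The senescence marker Cdkn1a (p21) was at 674 to 927 CPM in senescent and at 256 to 423 CPM in non-senescent PTEC.

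The members were among the better expressed genes. Per kilobase of annotated exon, the median member stood at the 77.0th percentile of genes with at least 1 CPM in non-senescent PTEC, at the 83.5th in senescent PTEC and at the 85.4th, 86.8th and 88.1st in kidneys of 3, 12 and 24 months. Psap, the precursor of the saposins that activate sphingolipid hydrolases, was the highest member per length in non-senescent PTEC (580 ± 126 CPM per kilobase, SD, n = 4) and at all 3 kidney ages. In senescent PTEC the highest was the aspartic protease cathepsin D, Ctsd (951 ± 60.4 CPM per kilobase, SD, n = 4), followed by Psap (717 ± 15.6). Lamp1, an abundant glycoprotein of the lysosomal membrane, was among the 3 highest in every group. Mitf and Idua were among the 4 lowest members per length in every group. Together the members took 0.900% to 1.28% of the counts in non-senescent PTEC, 1.38% to 1.55% in senescent PTEC and 1.26% to 1.50% in kidneys.

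Glb1 (ENSMUSG00000045594.10) spans bases 114401076 to 114474898 of chromosome 9 (GRCm38). It was measured at 50.2, 53.2, 78.0 and 95.8 CPM in the non-senescent cultures 1 to 4 and at 92.6, 83.3, 96.3 and 97.1 CPM in the senescent cultures 1 to 4. Non-senescent culture 4 reached the senescent range, so the groups overlapped, although each senescent culture lay above the non-senescent culture of the same number. The log2 fold change was 0.41 (95% interval -0.04 to 0.87, adjusted p = 0.127), and Glb1 was not called. Without non-senescent culture 4 the log2 fold change was 0.61 (adjusted p = 0.0210). That culture had the highest summed level of proximal tubule markers, 850 CPM against 215 to 258 CPM in the other non-senescent cultures, and the part of this difference was not tested. With the replicate number as a block it was 0.46 with an adjusted p of 0.0281, below the size of 0.5 that a call required. In kidneys Glb1 was at 217, 264 and 181 CPM at 3 months, at 251, 170 and 265 CPM at 12 months and at 209, 198 and 237 CPM at 24 months. The 3 ages overlapped. The log2 fold change from 3 to 24 months was -0.04 (95% interval -0.51 to 0.43, adjusted p = 0.926). Glb1 shares 165 exon bases with Tmppe on the same strand, 5.5% of its exon sequence.

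In senescent PTEC more members rose than fell. With a call set at adjusted p below 0.05 together with a log2 fold change beyond 0.5 in size, 12 members were up-regulated while 2 were down-regulated. Among all 15434 genes tested, 20.1% were up-regulated and 19.7% were down-regulated, against 27.3% and 4.55% of the members. The share of members called in either direction, 31.8%, was below the 39.8% of all genes. The median log2 fold change of the members was 0.26, compared with -0.002 over all genes, and 34 members had a positive and 10 a negative value. For 13 members every senescent culture lay above every non-senescent culture (22.1% of all genes did so), and for Gla every senescent culture lay below (19.9%). The labels do not say that cultures of equal number share anything. With equal numbers taken as pairs, senescent exceeded non-senescent PTEC in all 4 pairs for 19 members (43.2%, against 33.1% of all genes). It did so in none for 5 (11.4%, against 31.0%). The block gave 14 members up and 3 down, which is 38.6% in either direction against 44.6% of all genes in that fit (23.2% up and 21.3% down). These included all 14 called without it and, in addition, Naglu (log2 fold change 0.60, adjusted p = 0.0169), Mitf (0.54, adjusted p = 0.0321) and Ctsz (-0.51, adjusted p = 0.0147). Leaving out single cultures gave 10 to 16 members up and 1 to 4 down, with the most up (16) without non-senescent culture 4 and the most down (4) without non-senescent culture 2. Over all genes the same fits gave 2632 to 3377 up and 2369 to 3220 down, of 15659 to 15813 tested. The number of transcripts per cell and the number of cells of a type cannot be told apart in bulk RNA.

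**Figure D1:**
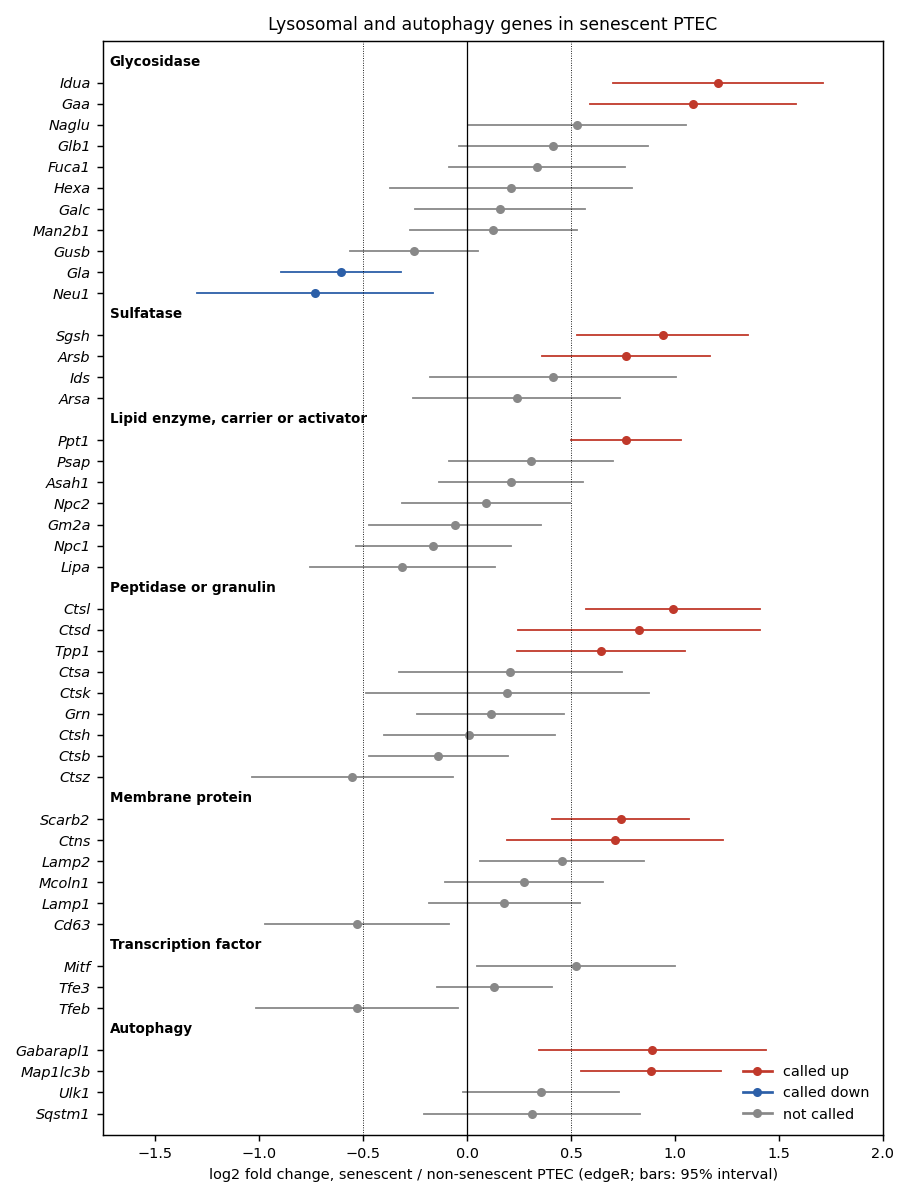
Log2 fold change of each of the 44 members in senescent against non-senescent PTEC (x axis, log2 scale; points, edgeR estimate; bars, 95% interval), grouped by role on the y axis. The 12 called up are red, the 2 called down are blue and the dotted lines mark the size of 0.5; the values range from -0.73 (Neu1) to 1.21 (Idua).

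Of the 11 glycosidases, 2 were up-regulated and 2 were down-regulated (18.2% each, against 20.1% and 19.7% of all genes). Idua, which removes iduronic acid from heparan and dermatan sulfate, was at 6.15, 6.04, 7.96 and 12.0 CPM in non-senescent and at 18.7, 18.2, 17.8 and 19.6 CPM in senescent PTEC. The 2 groups were apart, and the log2 fold change of 1.21 (SE 0.226, adjusted p = 0.00223) was the largest of all members. Gaa, which degrades glycogen in the lysosome, was at 70.2, 62.1, 120 and 118 CPM in non-senescent and at 207, 177, 199 and 204 CPM in senescent PTEC. Its log2 fold change was 1.09 (SE 0.222, adjusted p = 0.00355), again with no overlap.

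Gla, the α-galactosidase that degrades globotriaosylceramide, went the other way. It was at 35.2, 35.7, 43.1 and 43.6 CPM in non-senescent and at 25.4, 28.5, 25.5 and 24.2 CPM in senescent PTEC (log2 fold change -0.61, SE 0.129, adjusted p = 0.00443). All senescent cultures were below all non-senescent ones. Neu1, the lysosomal sialidase, was at 125, 115, 237 and 230 CPM in non-senescent and at 94.1, 92.5, 127 and 112 CPM in senescent PTEC (log2 fold change -0.73, SE 0.254, adjusted p = 0.0399). Its non-senescent cultures 1 and 2 lay within the senescent range, and the call was lost without senescent culture 1, 2 or 4 or non-senescent culture 3 or 4 (adjusted p up to 0.103), and also with upper quartile scaling. The other 7 glycosidases were not called, with log2 fold changes from -0.26 (Gusb) to 0.53 (Naglu).

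Of the 4 sulfatases, which act on glycosaminoglycans and sulfatide, 2 were up-regulated (20.1% of all genes were up-regulated). Sgsh, the heparan N-sulfatase, was at 15.4, 18.2, 25.2 and 23.1 CPM in non-senescent and at 43.6, 44.5, 33.4 and 35.8 CPM in senescent PTEC (log2 fold change 0.94, SE 0.184, adjusted p = 0.00282). Arsb, which acts on dermatan and chondroitin sulfate, was at 41.9, 47.6, 32.3 and 58.0 CPM in non-senescent and at 77.3, 72.6, 67.0 and 88.4 CPM in senescent PTEC (log2 fold change 0.76, SE 0.182, adjusted p = 0.00775). For both genes the groups were apart. Ids (0.41) and Arsa (0.24) were not called. Annotated genes on the opposite strand cover 21.6% of the exon sequence of Sgsh (Card14) and 32.3% of that of Arsb (Gm26527). Card14 had a median of 207 counts in the PTEC libraries, where Sgsh had 500 to 1355. Gm26527 had 0 to 3 counts in each PTEC library. Such overlap on the opposite strand also covers 28.3% of Gabarapl1, 26.8% of Ctsl, 18.8% of Arsa and 17.3% of Sqstm1, and its part in their counts was not tested.

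Among the genes of lipid degradation, 1 of 7 was up-regulated (14.3%, against 20.1% of all genes). Ppt1, the thioesterase that removes palmitate from proteins, was at 68.2, 61.6, 67.6 and 75.9 CPM in non-senescent and at 117, 106, 111 and 130 CPM in senescent PTEC. Its log2 fold change of 0.76 (SE 0.119) had the smallest adjusted p of all members, 0.000805, and the groups were apart. Psap was higher in every senescent culture, 1908 to 2009 CPM against 1218 to 1886 CPM, without being called (log2 fold change 0.31, adjusted p = 0.187). The cholesterol transporter Npc1 was at 88.7, 80.2, 63.3 and 107 CPM in non-senescent and at 74.1, 76.1, 66.7 and 86.5 CPM in senescent PTEC. The senescent values fell inside the non-senescent range (log2 fold change -0.16, 95% interval -0.53 to 0.21, adjusted p = 0.461). The lowest value of the group was that of the acid lipase Lipa, -0.31.

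Of the 9 peptidase genes, counted with granulin, 3 were up-regulated (33.3%, against 20.1% of all genes). The cysteine protease cathepsin L, Ctsl, was at 855, 937, 856 and 928 CPM in non-senescent and at 1884, 2357, 1390 and 1478 CPM in senescent PTEC (log2 fold change 0.99, SE 0.187, adjusted p = 0.00236). The non-senescent cultures were close together, and senescent cultures 1 and 2 were the highest. Ctsd was at 852, 833, 1737 and 1621 CPM in non-senescent and at 2407, 2222, 2255 and 2061 CPM in senescent PTEC (log2 fold change 0.83, SE 0.260, adjusted p = 0.0270). Non-senescent cultures 3 and 4 lay well above cultures 1 and 2, although below all senescent ones, and the call was lost without culture 1 or 2 of either group (adjusted p up to 0.0692). Its exons share 34.4% of their length with Gm49369 on the same strand. Tpp1, a tripeptidyl peptidase, was at 181, 172, 169 and 281 CPM in non-senescent and at 321, 318, 283 and 333 CPM in senescent PTEC (log2 fold change 0.64, SE 0.180, adjusted p = 0.0165). The remaining 6, among them Ctsb (-0.14) and Grn (0.11), were not called. Ctsz had the lowest value at -0.55 (adjusted p = 0.0624).

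Of the 6 membrane proteins, 2 were up-regulated (33.3%, against 20.1% of all genes). Scarb2, the receptor that carries glucocerebrosidase to the lysosome, was at 72.5, 72.2, 73.0 and 97.6 CPM in non-senescent and at 140, 148, 111 and 127 CPM in senescent PTEC (log2 fold change 0.74, SE 0.148, adjusted p = 0.00319). Ctns, the cystine exporter, was at 15.4, 18.8, 15.2 and 31.9 CPM in non-senescent and at 33.8, 35.4, 30.7 and 33.1 CPM in senescent PTEC (log2 fold change 0.71, SE 0.233, adjusted p = 0.0322). Its non-senescent culture 4 reached the senescent range. The call held without that culture or senescent culture 3 and was lost without any of the other 6 (adjusted p up to 0.0805). Lamp1 was at 767, 699, 1055 and 975 CPM in non-senescent and at 1023, 1004, 933 and 996 CPM in senescent PTEC. The groups overlapped (log2 fold change 0.18, 95% interval -0.18 to 0.54, adjusted p = 0.402). The tetraspanin Cd63 had the lowest value of this group, -0.53 (adjusted p = 0.0537). It was down-regulated by DESeq2 (-0.54, adjusted p = 0.0423), with DESeq2 size factors in edgeR and without the filter on low counts.

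None of the 3 transcription factors was called in the edgeR fit with TMM scaling and no block. Of them, 2 had an unadjusted p under 0.05, as did 45.5% of the members and 51.6% of all genes. Tfeb was at 14.3, 14.8, 26.2 and 19.5 CPM in non-senescent and at 13.5, 14.8, 13.1 and 10.4 CPM in senescent PTEC (log2 fold change -0.53, 95% interval -1.01 to -0.04, adjusted p = 0.0747). Mitf had the opposite sign. It was at 6.89, 6.79, 4.24 and 6.28 CPM in non-senescent and at 8.43, 10.9, 7.70 and 7.77 CPM in senescent PTEC, without overlap (log2 fold change 0.52, SE 0.213, adjusted p = 0.0712). Mitf passed the threshold with the replicate number as a block, and also with upper quartile scaling. Tfe3 was at 56.3, 57.4, 71.3 and 52.6 CPM in non-senescent and at 64.9, 65.7, 64.3 and 65.3 CPM in senescent PTEC (log2 fold change 0.13, adjusted p = 0.420). Counts of transcripts do not show where in the cell these factors are. DESeq2 with the study's settings called none of them either.

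Of the 4 autophagy genes, the 2 that encode ATG8 proteins of the autophagosome membrane were up-regulated (20.1% of all genes were up-regulated). Map1lc3b (LC3B) was at 104, 104, 155 and 111 CPM in non-senescent and at 217, 222, 222 and 214 CPM in senescent PTEC (log2 fold change 0.89, SE 0.150, adjusted p = 0.00133). Gabarapl1 was at 117, 113, 206 and 223 CPM in non-senescent and at 331, 360, 261 and 271 CPM in senescent PTEC (log2 fold change 0.89, SE 0.245, adjusted p = 0.0154). The groups were apart for both. The cargo receptor Sqstm1 (p62) was at 908, 654, 1373 and 690 CPM in non-senescent and at 1167, 1098, 1205 and 1035 CPM in senescent PTEC. Non-senescent culture 3 was the highest of all 8 cultures, and Sqstm1 was not called (log2 fold change 0.31, 95% interval -0.21 to 0.83, adjusted p = 0.303). Without that culture it was at 0.59 (adjusted p = 0.0144). Ulk1, the kinase that starts autophagy, was at 0.35 (adjusted p = 0.116) and was called up only without non-senescent culture 4.

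**Figure D2:**
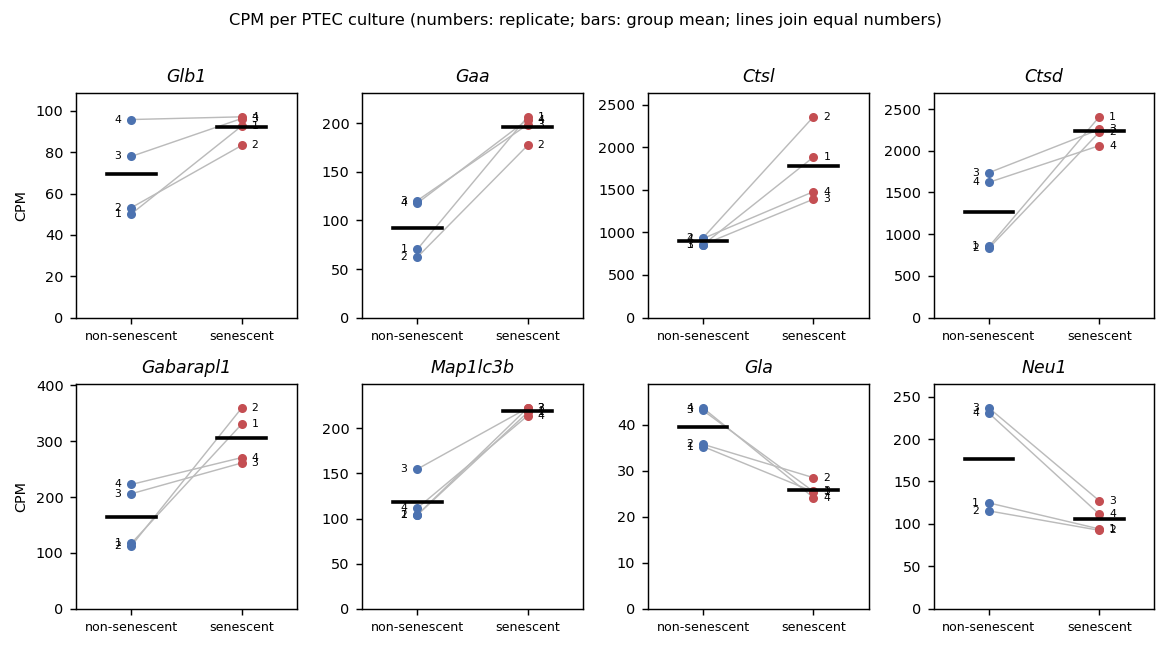
CPM (y axis, from 0) of 8 members in each non-senescent (blue) and senescent (red) PTEC culture, with the replicate number beside each point, grey lines between equal numbers and a black bar at the group mean. Senescent cultures lie above all non-senescent ones for Gaa, Ctsl, Ctsd, Gabarapl1 and Map1lc3b and below them for Gla, whereas the groups overlap for Glb1 and Neu1.

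The spread between cultures differed between the groups. The coefficient of variation of the members had a median of 27.1% in non-senescent and 7.15% in senescent PTEC, compared with 25.1% and 14.9% over all tested genes. In non-senescent PTEC, cultures 3 and 4 were both above cultures 1 and 2 for 29 of the 44 members (65.9%, against 24.5% of all tested genes), and both below for 2. In senescent PTEC the corresponding numbers were 8 (18.2%, against 28.0%) and 11. The summed level of the members was 9631, 9079, 13439 and 12900 CPM in non-senescent cultures 1 to 4 and 14766, 15036, 13800 and 13863 CPM in senescent cultures 1 to 4. All senescent sums were above all non-senescent sums. The most abundant members weigh most in these sums, and 30 of the 44 members were not called. This pattern among the non-senescent cultures was chosen after its values were seen, and it is given as a description.

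Markers of other cell types were read beside these results. The summed level of 8 fibroblast markers was 17.5 to 108 CPM in non-senescent and 130 to 482 CPM in senescent PTEC, without overlap, and 5 of the 7 that were tested were up-regulated. Postn rose from a mean of 4.35 to 41.9 CPM (adjusted p = 0.000171), Col1a2 from 22.2 to 91.0 CPM (adjusted p = 0.0251), Col3a1 from 7.15 to 30.2 CPM (adjusted p = 0.0385) and Dcn from 0.0893 to 0.765 CPM (adjusted p = 0.00184). Pdgfrb was the other marker called up. Col1a1 (mean 32.2 in non-senescent and 101 CPM in senescent PTEC) and Pdgfra (1.33 and 2.13 CPM) were also higher without being called. Lum was at or near 0 in all cultures. The summed level of 12 macrophage markers was 79.7 to 128 CPM in non-senescent and 56.5 to 240 CPM in senescent PTEC, with overlap, and the lowest adjusted p of the 10 tested was 0.173. Of 8 leukocyte markers 6 were tested and 3 were down-regulated (Coro1a, Lcp1 and Ptprc), with sums of 22.2 to 42.6 CPM in non-senescent and 14.0 to 35.6 CPM in senescent PTEC. Of 6 tested proximal tubule markers 3 were down-regulated, among them Hnf4a (log2 fold change -2.98). The part of these cell types in the results of the members was not tested.

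The calls were also divided by the promoter element. Of the 10 members with TCACGTG, 3 were up-regulated (Gaa, Sgsh and Ctsd) and 1 was down-regulated (Gla), which is 40.0% in either direction against 39.8% of all genes, with a median log2 fold change of 0.34. Of the 30 with an entry and no TCACGTG, 9 were up-regulated and 1 was down-regulated, with a median of 0.31. Glb1 and Lamp1 hold the element and were not called, whereas Idua, Ctsl, Map1lc3b and Gabarapl1 were called without it. No test was made of these numbers.

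Other genes of the pathway were taken from 8 lists with 132 genes, of which 129 were tested in PTEC. Here 28 rose and 10 fell (21.7% and 7.75%, against 20.1% and 19.7% of all genes), and the median log2 fold change was 0.15. The counts of the single lists below are to be read against the same shares of all genes. The largest share was that of other lysosomal hydrolases, in which 9 of 22 were up-regulated and 4 were down-regulated. The cysteine protease gene Ctsf had the highest log2 fold change (2.57, 37.3 against 6.31 CPM, adjusted p = 0.00166) and the phosphatase gene Acp5 the lowest (-1.58, adjusted p = 0.00224). In the core machinery of autophagy, 8 of 32 were up-regulated, with the selective autophagy receptor Calcoco1 at 1.55 (adjusted p = 0.000176), and 1, the protease gene Atg4d, was down-regulated (-0.98, adjusted p = 0.00471). Of 15 other lysosomal membrane proteins, 3 were up-regulated, led by Laptm4a (1.20), and 1 was down-regulated (Tpcn2, -0.70).

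The proton pump that acidifies the lysosome, the V-ATPase, had 2 of 16 widely expressed subunits up-regulated, with Atp6v1e1 the highest at 0.66. Of its subunits enriched in intercalated cells only 2 of 5 passed the filter, and Atp6v0a4 was down-regulated (-4.26, 1.73 against 33.2 CPM, adjusted p = 0.000237). Genes of mTORC1 and lysosomal nutrient sensing had 2 of 18 up-regulated and 2 down-regulated, from Fnip2 (-1.03) to Rragd (0.65). Enzyme sorting genes had 2 of 10 up-regulated and 1 down-regulated, and autophagosome fusion genes had 2 of 14 up-regulated.

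**Figure D3:**
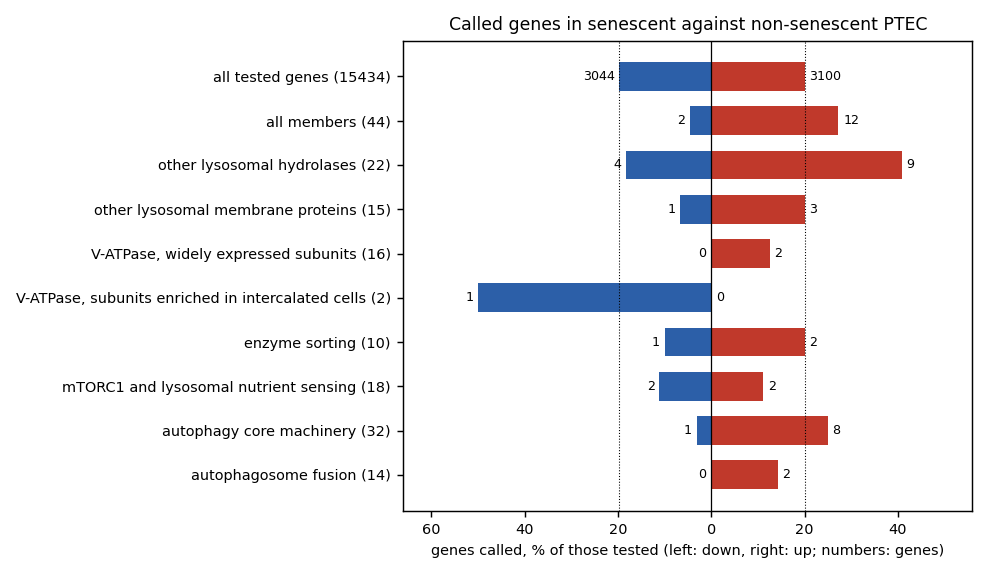
Share of tested genes called down (left, blue) and up (right, red) in senescent PTEC, in percent on the x axis, for all tested genes, the 44 members and the 8 further pathway lists on the y axis (tested genes in parentheses, called genes beside the bars). The dotted lines mark all tested genes, 20.1% up and 19.7% down; the members reach 27.3% up and 4.55% down.

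In the edgeR fit over the 3 kidney ages no member passed the threshold, whereas between 24 and 12 months DESeq2, and edgeR with only these ages, called Hexa. Between 24 and 3 months edgeR called 0 of 44 members, against 2.34% of the 17067 genes tested (1.89% up and 0.451% down). At an unadjusted p under 0.05 there were 4 members (9.09%, against 18.2% of all genes), all higher at 24 months. DESeq2 called 0 members, against 3.45% of all genes in that fit. Between 12 and 3 months edgeR called 0 members, against 2.58% of all genes (1.22% up and 1.36% down). There was 1 at an unadjusted p under 0.05 (2.27%, against 16.5% of all genes) and 0 by DESeq2 (against 3.69% of all genes in that fit). Between 24 and 12 months edgeR called 0, against 1.33% of all genes (0.896% up and 0.434% down), with 7 at an unadjusted p under 0.05 (15.9%, against 15.2% of all genes) and 1, Hexa, by DESeq2 (2.27%, against 2.59% of all genes in that fit). These 3 comparisons share kidneys and are not independent. The median log2 fold change of the members was 0.13 from 3 to 24 months, 0.02 from 3 to 12 months and 0.12 from 12 to 24 months. Leaving out 1 kidney moved these medians. From 3 to 24 months the median was 0.28 without 3-month kidney 2, 0.26 without 24-month kidney 2 and 0.089 without 3-month kidney 3, and the members at an unadjusted p under 0.05 numbered 1 to 13, with 13 without 3-month kidney 2. From 3 to 12 months the median ranged from -0.047 (without 3-month kidney 3) to 0.20 (without 3-month kidney 2), so its sign was not stable. From 12 to 24 months it ranged from 0.036 (without 12-month kidney 2) to 0.23 (without 24-month kidney 2). Every kidney of 24 months lay above every kidney of 3 months for 8 members (11.9% of all genes) and below for 1 (10.1%). The corresponding numbers were 2 (10.9%) and 1 (9.40%) between 12 and 3 months and 9 (13.5%) and 2 (12.2%) between 24 and 12 months. The medians of the log2 fold change over all genes were 0.0007, 0.004 and -0.0004.

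**Figure D4:**
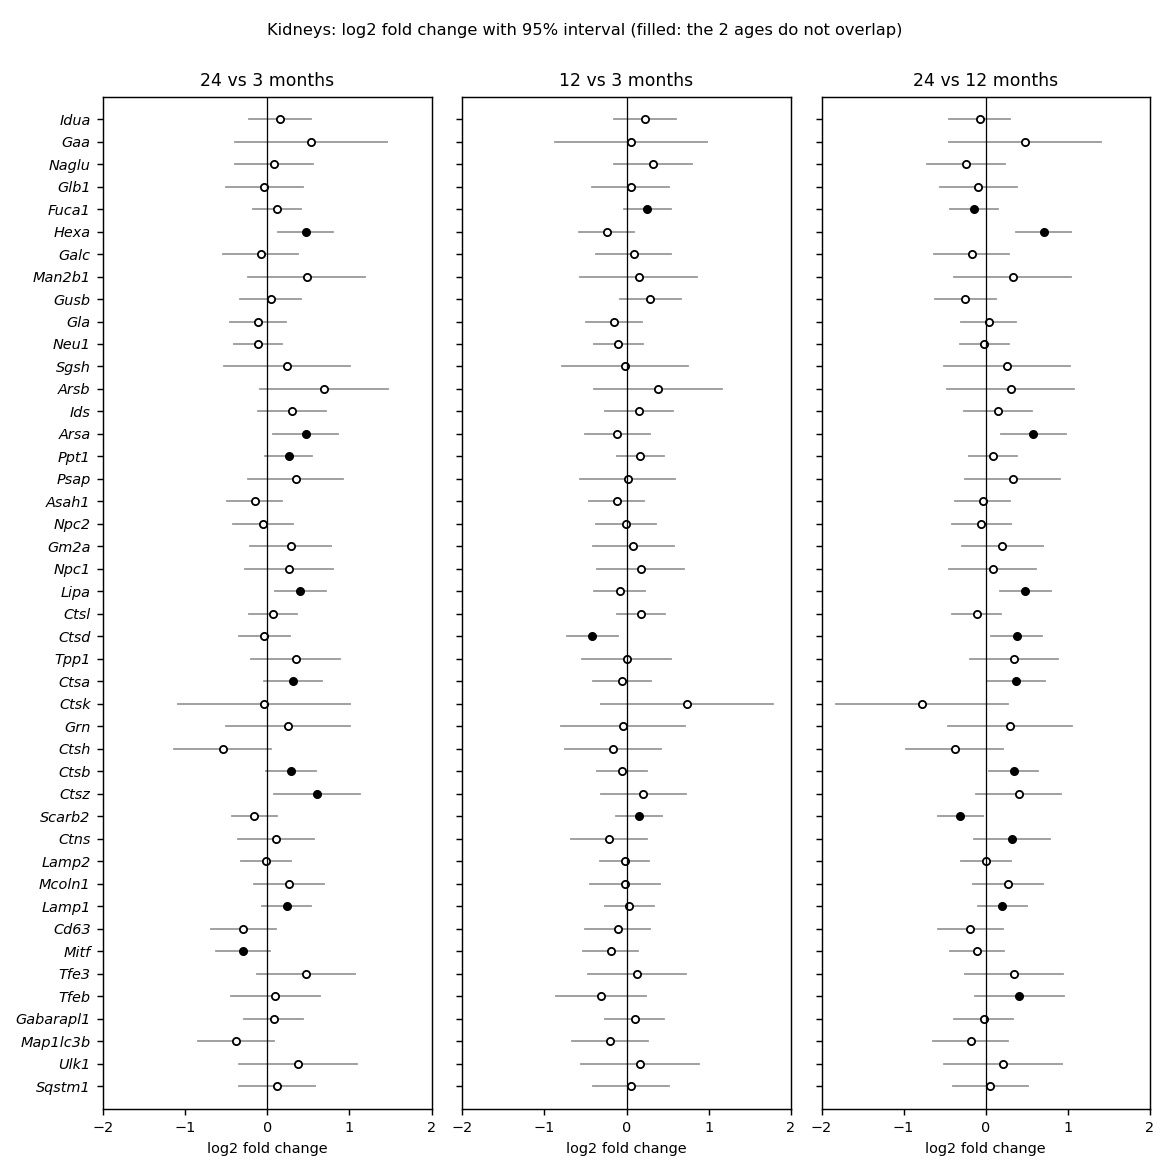
Log2 fold change with its 95% interval (x axis, log2 scale) of the 44 members (y axis) for 24 against 3, 12 against 3 and 24 against 12 months, which share kidneys. No member was called in this edgeR fit over the 3 ages. Filled points mark members whose kidneys of the 2 ages do not overlap, at 24 against 3 months 8 above and 1 below (11.9% and 10.1% of all genes), at 12 against 3 months 2 and 1 (10.9% and 9.40%) and at 24 against 12 months 9 and 2 (13.5% and 12.2%).

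Hexa, the α subunit of β-hexosaminidase, had the smallest adjusted p among the members in the kidneys. It was at 45.5, 36.1 and 51.1 CPM at 3 months, at 36.4, 37.8 and 38.1 CPM at 12 months and at 62.8, 63.1 and 57.5 CPM at 24 months. All kidneys of 24 months lay above all younger kidneys. Tmem202 on the opposite strand covers 12.8% of its exon sequence. From 12 to 24 months its log2 fold change was 0.71 (SE 0.149, adjusted p = 0.0570 with edgeR, and 0.71 with an adjusted p of 0.000416 with DESeq2). From 3 to 24 months it was 0.47 (adjusted p = 0.151).

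The labels number the mice within each age. Equal numbers deviated together from their group means at 24 and 12 months (r from 0.171 to 0.555). The fit reported above did not use the numbers, which entered as a block in alternative fits only. Unequal numbers also correlated, 24-month kidney 1 with 12-month kidney 3 at r = 0.267 and 24-month kidney 3 with 12-month kidney 1 at r = 0.187, both above the 0.171 of the kidneys numbered 3, and the labels do not say that equal numbers share anything. With the number as a block in the fit over the 3 ages, edgeR called none of the 17067 genes between 24 and 12 months, with 4 members at an unadjusted p under 0.05. With the block and only the kidneys of 12 and 24 months, 3 members were up-regulated, Hexa (0.71, adjusted p = 0.00349), Arsa (0.57, adjusted p = 0.0143) and Gaa (0.54, adjusted p = 0.0195), and Ctsk was down-regulated (-0.69, adjusted p = 0.0447). These are 9.09% of the members, against 13.2% of all 16686 genes called in that fit.

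Besides Hexa, 5 members had all kidneys of 24 months above all younger ones, namely Arsa, Lipa, Ctsa, Ctsb and Lamp1, so that 6 of 44 did so (4.71% of all genes). No member had them all below (4.23% of all genes). Arsa, which degrades sulfatide, was at 9.22, 10.4 and 7.27 CPM at 3 months, at 8.60, 7.42 and 8.88 CPM at 12 months and at 13.4, 10.6 and 13.2 CPM at 24 months (log2 fold change from 12 to 24 months 0.58, adjusted p = 0.155). Lipa was at 263, 241 and 228 CPM at 3 months, at 249, 223 and 219 CPM at 12 months and at 287, 352 and 327 CPM at 24 months. Its log2 fold change was 0.40 from 3 to 24 months (adjusted p = 0.179) and 0.49 from 12 to 24 months (adjusted p = 0.134). Lamp1 was at 1235, 1334 and 1167 CPM at 3 months, at 1325, 1134 and 1358 CPM at 12 months and at 1512, 1369 and 1516 CPM at 24 months, with a log2 fold change of 0.23 from 3 to 24 months (95% interval -0.06 to 0.53, adjusted p = 0.356).

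Ctsd was lowest at 12 months. It was at 505, 475 and 515 CPM at 3 months, at 398, 320 and 401 CPM at 12 months and at 492, 456 and 509 CPM at 24 months. Every kidney of 12 months lay below every kidney of the other ages. The log2 fold change was -0.42 from 3 to 12 months (adjusted p = 0.160), 0.38 from 12 to 24 months (adjusted p = 0.234) and -0.04 from 3 to 24 months (95% interval -0.35 to 0.27).

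Among the remaining anchors of the pathway, Npc1 was at 17.9, 25.3 and 17.1 CPM at 3 months, at 24.2, 17.5 and 26.3 CPM at 12 months and at 28.7, 18.4 and 25.2 CPM at 24 months. Sqstm1 was at 602, 716 and 561 CPM, at 726, 469 and 754 CPM and at 716, 586 and 728 CPM at the same ages. The ages overlapped for both, with log2 fold changes from 3 to 24 months of 0.26 (95% interval -0.27 to 0.79) and 0.11 (-0.35 to 0.57). The transcription factors were not called by edgeR at any age. Tfeb was at 23.6, 27.2 and 16.2 CPM at 3 months, at 21.1, 12.8 and 20.1 CPM at 12 months and at 22.5, 22.4 and 26.7 CPM at 24 months. Tfe3 was at 17.9, 23.7 and 13.4 CPM, at 23.4, 14.1 and 22.7 CPM and at 28.9, 20.4 and 27.0 CPM. Mitf was at 9.32, 10.1 and 9.96 CPM, at 8.38, 9.67 and 7.66 CPM and at 7.89, 8.83 and 7.20 CPM, and all its kidneys of 24 months were below those of 3 months (log2 fold change -0.30, adjusted p = 0.311).

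**Figure D5:**
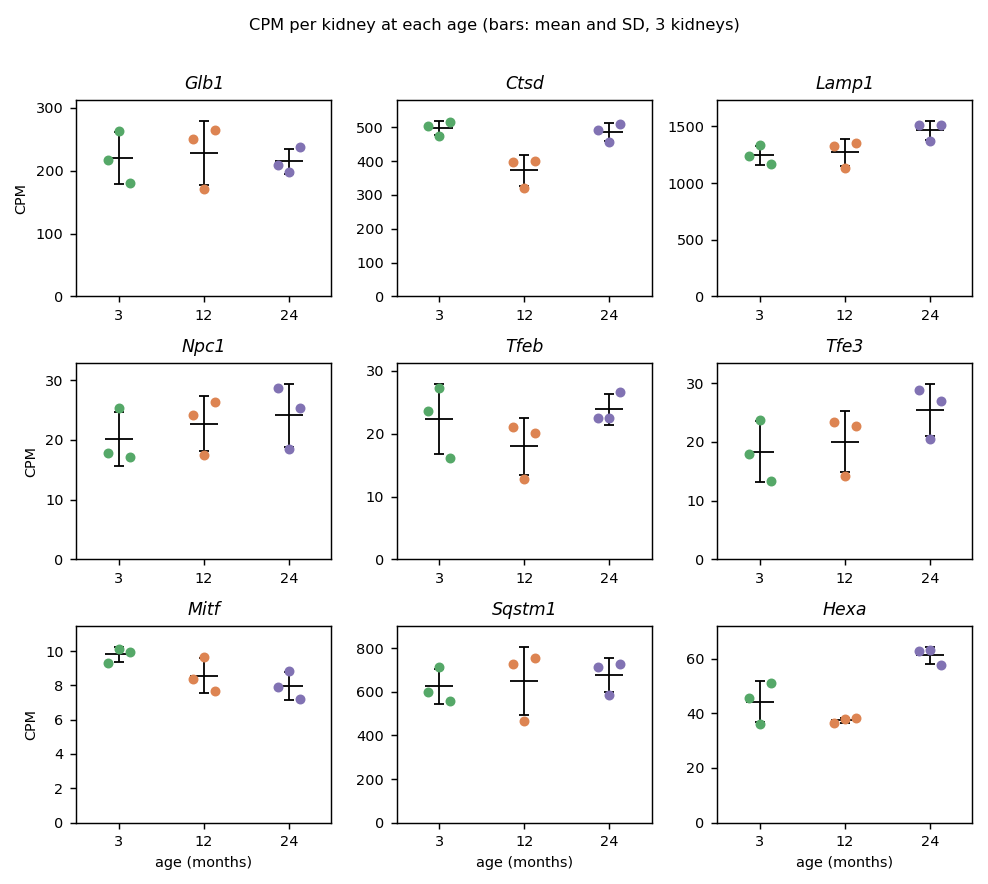
CPM (y axis, from 0) of 9 members in each kidney at 3, 12 and 24 months (x axis), with bars at the mean and SD of 3 kidneys. Hexa is at 57.5 to 63.1 CPM at 24 months, above all younger kidneys, Ctsd is lowest at 12 months, and the ages overlap for Glb1, Npc1, Tfe3 and Sqstm1.

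Members tended to be low together in the same kidney. Kidney 3 of 3 months, kidney 2 of 12 months and kidney 2 of 24 months each had the lowest value of its age for 30 of the 44 members, against 39.9%, 44% and 40.4% of all tested genes. These were also the kidneys with the lowest summed level of 10 proximal tubule markers at each age, 10769, 12484 and 15619 CPM, where the others had 14139 to 20227 CPM. Gaa, for example, was at 89.8, 131 and 53.8 CPM at 3 months, at 113, 49.9 and 122 CPM at 12 months and at 160, 88.7 and 149 CPM at 24 months. Its range within an age exceeded the difference between the ages (log2 fold change from 3 to 24 months 0.53, SE 0.411, adjusted p = 0.467). Ctsh, an aminopeptidase of the cathepsin family, had its highest value in these same kidneys, with 492, 453 and 309 CPM against 236 to 367 CPM in the others. Proximal tubule markers had median sums of 14139, 18851 and 19774 CPM at 3, 12 and 24 months. From 3 to 24 months edgeR called 2 of the 10 up, Slc5a2 (log2 fold change 1.88, adjusted p = 0.00997) and Slc5a12 (1.56, adjusted p = 0.0279), and 8 were not called. Macrophage markers summed to 111 to 180 CPM at 3 months, 164 to 189 CPM at 12 months and 188 to 246 CPM at 24 months, and 8 leukocyte markers to 58.1 to 69.1, 94.8 to 97.6 and 100.3 to 145 CPM. Fibroblast markers summed to 126 to 143, 152 to 162 and 194 to 235 CPM, with no overlap between the ages. Intercalated cell markers summed to 131 to 213, 80.9 to 182 and 110 to 141 CPM, and the lowest sum of each age was again that of these 3 kidneys. The part of these cell types in the kidney values was not tested.

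Of the 132 other pathway genes, all tested in kidneys, 2 were up-regulated and 1 was down-regulated between 3 and 24 months. These were Ctss (log2 fold change 1.30, 25.7 against 10.5 CPM, adjusted p = 0.0152), a cathepsin known from antigen-presenting cells, the V-ATPase subunit gene Atp6v0c (1.50, 192 against 68.1 CPM, adjusted p = 0.0200) and the subunit gene Atp6v1c2 (-1.15, 9.43 against 20.9 CPM, adjusted p = 0.0212). The 3 calls are 2.27% of the list, against the 2.34% of all genes. At an unadjusted p under 0.05 there were 21 (15.9%, against 18.2% of all genes), of which 3 were higher at 24 months. Kidneys of 3 months were counted on another gene set than the older ones, so for a gene whose model differs between the sets, age and annotation cannot be told apart. Hgs, for instance, was listed at 0 in every kidney of 3 months and had a mean of 47.3 CPM at 12 and 66.2 CPM at 24 months. Whether the models of the members or of Atp6v0c differ was not tested. Gm26527, which covers 32.3% of the Arsb exon sequence on the opposite strand, was listed only in the 3-month kidneys, with 0 to 2 counts. Arsb had the highest log2 fold change of the members from 3 to 24 months (0.68, not called). The part of the listing in this value was not tested. Atp6v1c2 is a subunit enriched in intercalated cells, and all 6 intercalated cell markers had a negative log2 fold change from 3 to 24 months. Of these markers 0 were called by edgeR (lowest adjusted p = 0.204), and the part of these cells in the Atp6v1c2 value was not tested. Between 12 and 3 months and between 24 and 12 months edgeR called 0 of the 132, with 14 (10.6%, against 16.5% of all genes) and 9 (6.82%, against 15.2%) at an unadjusted p under 0.05.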

How the data were processed

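RNA was enriched for poly(A) and made into directional libraries, per the study's methods, and the authors deposited raw read counts per gene for 8 PTEC and 9 kidney libraries, mapped to GRCm38 per the submitters' processing notes. The strand setting of the counting was not given in the sources used here, so reads of a member and of a gene on its opposite strand may not have been separated. The PTEC, the 3-month and the older kidney files list different gene sets, and kidneys were compared on the 53772 identifiers shared by their files, so age and annotation cannot be told apart for genes whose models differ. CPM were computed from the library totals multiplied by the TMM factors, apart for PTEC and kidneys, so levels set side by side across both kinds of sample are scaled separately. Counts were tested with the quasi-likelihood test of edgeR 4.0.16 (R 4.3.3) after TMM scaling and filterByExpr, with Benjamini-Hochberg adjustment over all tested genes. PTEC and kidneys were fitted apart, and the 3 ages in 1 model. All adjusted p-values are from edgeR unless DESeq2 is named. Calls needed an adjusted p below 0.05 together with a log2 fold change beyond 0.5 in size. The labels do not say whether replicates are separate cultures from separate animals, so p-values measure the spread between these samples.

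The members and lists were chosen with earlier results of these data known. Named members are those called in a comparison, the extremes of a role group, and always Glb1, Ctsd, Lamp1, Npc1, Tfeb, Tfe3, Mitf and Sqstm1. Of each other list the highest and lowest gene may be named. Hexa, Arsa, Lipa, Gaa, Ctsh, Ctsa and Ctsb in kidneys, Ctss, Psap, and members given with values though not called were named after their values were seen.

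Deviations from the group means over genes correlated between equal replicate numbers in PTEC (r = 0.277, 0.380, 0.613 and 0.188) and in kidneys of 12 and 24 months (r = 0.383, 0.555 and 0.171). The main fits did not use these numbers, and a block on them was an alternative. Some unequal numbers correlated too, in PTEC 1 with 2 (r = 0.263 and 0.130). In the other kidney comparisons equal numbers did not, whereas some unequal numbers did, such as 12-month kidney 2 with 3-month kidney 3 (r = 0.748). Alternatives were DESeq2 1.42.0 size factors or test, upper quartile scaling, no filter, the replicate block, only the ages compared, and each library left out. Simulated counts were tested first: in PTEC (15245 genes) 34 of 100 changes of log2 size 1 and 82 of 98 of size 2 were recovered, with 6 false among 122 calls. In kidneys (16295 genes) 14 of 96 and 77 of 97 were recovered, with 5 false among 96 calls. The simulation changed only these few genes, whereas 39.8% of PTEC genes were called in the data. For kidneys it held only the ages 3 and 24 months. The shares recovered need not hold for the fits reported. Figures were drawn with matplotlib 3.10.9.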

Additional observations from a re-analysis of the deposited data

Results flagged for a closer look

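In 7 of 88 combinations of member and PTEC group, 1 culture stood apart from the other 3 by Dixon's criterion at the 95% level, where chance gives about 4.4. Groups of 3 kidneys were not examined. Non-senescent culture 4 was high for 4 members, and its proximal tubule markers summed to 850 CPM against 215 to 258 CPM in the other 3. It had 136 CPM of Galc (others 79.4 to 89.0 CPM), 458 CPM of Asah1 (307 to 333 CPM), 281 CPM of Tpp1 (169 to 181 CPM) and 97.6 CPM of Scarb2 (72.2 to 73.0 CPM). Non-senescent culture 3 was high for Npc2 with 358 CPM (210 to 230 CPM) and for Map1lc3b with 155 CPM (104 to 111 CPM). Senescent culture 2 was high for Ctsa with 212 CPM (192 to 196 CPM). Tpp1, Scarb2 and Map1lc3b were up-regulated in senescent PTEC with these cultures included and also in each fit that left out 1 culture.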

How the results depend on the processing

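Of the 14 members called in PTEC, 11 were called in every fit without 1 culture, and Ctns, Neu1 and Ctsd were not. The number of down-regulated members was 2. It was 1 with upper quartile scaling (Neu1 lost) and 4 without the filter on low counts (Cd63 and Ctsz gained). Without single cultures it was 1 to 4, where 2369 to 3220 of all genes were down-regulated. Upper quartile scaling also gave 14 up, with Lamp2 and Mitf gained, where 3334 of all 15434 genes were up-regulated and 2720 down-regulated. With the replicate block the PTEC counts were 14 up and 3 down; Glb1 was at 0.46 (adjusted p = 0.0281). In kidneys of 24 against 12 months, 1 member (2.27%) was up-regulated by DESeq2 (2.59% of all genes called), 1 with only the compared ages in the fit (1.12% of all genes), and, with the replicate block and only those ages, an alternative added after seeing the data, 3 up and 1 down, where 13.2% of all genes were called. In PTEC, Ctsh changed sign to -0.000551 with DESeq2 size factors, -3.6e-05 without the filter and -0.0021 with DESeq2. Without single libraries, values that changed sign ranged as follows. In PTEC, Gm2a ranged from -0.15 to 0.074 and Ctsh from -0.074 to 0.13. From 3 to 24 months, Glb1 ranged from -0.16 to 0.12, Gla from -0.21 to 0.012, Ctsd from -0.079 to 0.011 and Tfeb from -0.090 to 0.27. From 3 to 12 months, Glb1 ranged from -0.074 to 0.23, Arsa from -0.25 to 0.015, Lamp1 from -0.019 to 0.11, Ctns from -0.39 to 0.040, Tfe3 from -0.054 to 0.37, Sqstm1 from -0.067 to 0.24 and Ulk1 from -0.075 to 0.50. From 12 to 24 months, Glb1 ranged from -0.26 to 0.032, Npc1 from -0.069 to 0.25, Npc2 from -0.11 to 0.039, Sqstm1 from -0.13 to 0.18, Map1lc3b from -0.30 to 0.0091 and Ulk1 from -0.014 to 0.36. The causes were not tested. Without the filter, and with DESeq2, the median of all PTEC genes was 0.11, over 30570 genes instead of 15434. The fewest reads of a member in a library were 33 (Ctsk), depth rose with age, and the effect of depth was not tested. In simulated kidneys of 3 and 24 months, a setting that differs from the fit over the 3 ages, 14 of 96 changes of log2 size 1 and 77 of 97 of size 2 were recovered.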
